A study of Mus musculus with 12 samples.

Results

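The cell makes cholesterol from acetyl-CoA and long-chain fatty acids from the same precursor, and the values of 31 genes of both paths are described here in 4 sorted fractions of monocyte-macrophage lineage cells (Mo-Macs) from inflamed mouse skin. The genes were taken by symbol from a list that covers the mevalonate path (7 genes), sterol synthesis (11 genes), SREBP control and sterol transport (6 genes) and fatty acid synthesis (7 genes). The list was chosen with earlier results of these data known, so the shares of members called are a description only. All 31 were among the 37775 symbols of the expression table, and all 31 were among the 22118 genes that passed the filter on low counts and were tested. Bulk RNA-seq was done on 12 libraries, 3 for each fraction.

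All mice were male WT BALB/c animals aged 7 to 12 weeks with IgE-mediated chronic allergic inflammation (IgE-CAI) of the ear skin. They received 300 µg of anti-TNP IgE intravenously and, on the next day, 10 µg of TNP-conjugated ovalbumin into the skin of the right ear. The ears were taken on day 5 after the challenge. All 4 fractions share this treatment and are compared only with each other, since no library from untreated skin was analysed here. CD45+CD11b+ cells without SiglecF and Ly6G were sorted by Ly6C and PD-L2 into Ly6ChiPD-L2lo classical monocytes, Ly6ChiPD-L2hi early classical monocyte-derived macrophages (early CMDMs), Ly6CloPD-L2hi late CMDMs and Ly6CloPD-L2lo resident-like macrophages. Between 5000 and 80000 cells went into a library. The labels do not say that the 3 libraries of a fraction came from separate animals, and p-values therefore measure the spread between these libraries, which may be technical in part.

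As background, cholesterol synthesis starts with the condensation of acetyl-CoA units, passes through mevalonate and the isoprenoid farnesyl pyrophosphate to squalene, and then through lanosterol and a series of demethylation, isomerization and reduction steps to cholesterol. The transcription factors SREBP-2 and SREBP-1, encoded by Srebf2 and Srebf1, switch on these genes and the fatty acid genes. SCAP escorts the SREBPs from the endoplasmic reticulum when sterols are low, and the INSIG proteins retain them there when sterols are high. Macrophages take up much of their cholesterol with engulfed cells and lipoproteins, and LXR, a receptor for oxidized sterols, drives the export of the surplus.

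Levels are given as CPM, the counts of a gene scaled to the TMM-adjusted library total, and differences as log2 fold changes with their standard errors. A gene was called when the edgeR quasi-likelihood test gave a Benjamini-Hochberg adjusted p under 0.05 over all genes tested. Total counts were 12537178 to 19844113 per library, where 3 counts correspond to 0.162 to 0.239 CPM. The lowest count of a member in any library was 72, for Dhcr7, so that no member lay near this limit.

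Markers of other skin cells differed between the fractions although the sort was gated on CD45. The summed level of 6 keratinocyte genes (Dsp, Krt1, Krt5, Krt10, Krt14 and Krt15) was 23851, 27284 and 17096 CPM for early CMDMs, against 2716, 4049.9 and 1871 CPM for classical monocytes, 3106, 3647 and 3118 CPM for late CMDMs and 2298, 2615 and 2377 CPM for resident-like macrophages. None of the 6 was at 0 in a fraction, and all 6 passed the test as higher in early CMDMs than in classical monocytes and as lower in late than in early CMDMs. The 7 monocyte-macrophage markers summed to 2777 to 3966 CPM in early CMDMs and to 6443 to 10977 CPM in the libraries of the other fractions. Fibroblast markers summed to 2988 to 5588 CPM in classical monocytes and early CMDMs and to 276 to 499 CPM in the other fractions. Lymphatic endothelial markers were highest in late CMDMs (160.3 to 273 CPM), summed dendritic and Langerhans cell markers in resident-like macrophages (906 to 1204 CPM) and T cell markers in classical monocytes (101.3 to 135 CPM), while adipocyte markers summed to 3.32 to 12.3 CPM everywhere, with Lep at 0 in late CMDMs and resident-like macrophages. Of the 5 dendritic and Langerhans genes, Cd207 made up most of the resident-like sum, with a mean of 819 CPM. Against classical monocytes, 2 of the 5 were called higher in resident-like macrophages, 1 lower and 2 not called. The gene with the opposite direction was Flt3, at 68.9 CPM in classical monocytes and 27.0 CPM in resident-like macrophages. Early CMDM values of the members therefore stand beside a high keratinocyte level, whose part in them was not tested. In bulk libraries, fewer cells of a type and less RNA per cell cannot be told apart.

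Early CMDMs held the highest mean level of 22 of the 31 genes, and resident-like macrophages the lowest mean of 17. Late CMDMs had the highest mean of 6 genes (Acat2, Mvd, Msmo1, Hsd17b7, Scd1 and Elovl6), classical monocytes that of Elovl5 alone, and resident-like macrophages that of Ebp and Insig1. The plot of summed levels shows the path members together. The mevalonate genes summed to 269, 283 and 192 CPM for classical monocytes, 629.6, 707 and 546 CPM for early CMDMs, 401, 453 and 488 CPM for late CMDMs and 251, 243 and 349 CPM for resident-like macrophages. The early libraries lay above all late libraries, and the late libraries above the remaining 6. In the sum of the sterol synthesis genes early and late CMDMs overlapped, at 538, 637 and 497 CPM and 401, 476 and 502 CPM, and all 6 of their libraries lay above those of the other fractions. The summed fatty acid genes were instead highest in late CMDMs, at 903, 1214 and 1387 CPM, with early CMDMs at 818, 852 and 873 CPM. Scd1 and Elovl6 made up most of this sum.

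**Figure D1:**
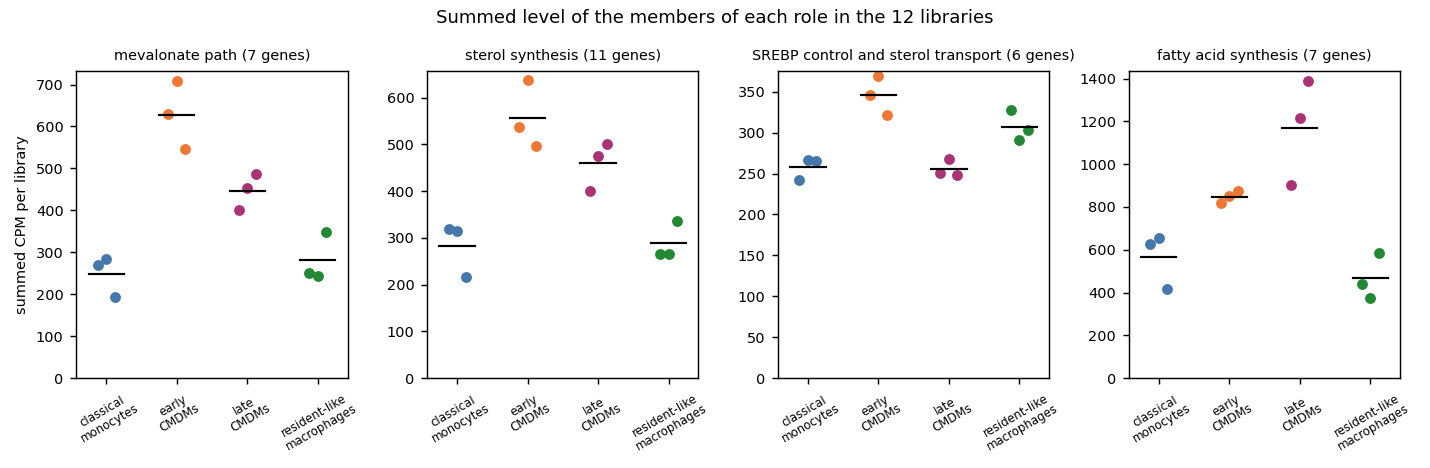
Summed TMM-normalized CPM of the members of each role in each of the 12 libraries (points, 3 per fraction; black lines are means of 3 libraries; the axes start at 0). The mevalonate genes lie at 546 to 707 CPM in early CMDMs and at 192 to 349 CPM in classical monocytes and resident-like macrophages, whereas the fatty acid genes reach 903 to 1387 CPM in late CMDMs.

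Compared per length, Scd1 was the most abundant member, at 62.3 CPM per kilobase of its longest annotated transcript as the mean of the 4 fractions. Hmgcs1 (44.0), Pmvk (37.3), Ebp (31.2) and Elovl5 (30.3 CPM per kilobase) followed. The lowest levels per length were those of Fasn (2.61), Acaca (3.11), Tm7sf2 (3.21) and Dhcr7 (3.43 CPM per kilobase), and the median member was at 10.1 CPM per kilobase. The 31 genes lie on 15 chromosomes. Scd1 and Scd2 lie close together on chromosome 19, and their similar transcripts, with those of Scd3 and Scd4, could share reads in the authors' counting.

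Because many of these genes are known targets of the SREBPs and of the CCAAT-binding factor NF-Y, their promoters are shown. RefSeq windows of 300 bases (GRCm38.p6), 250 before and 50 after the transcription start, were matched by symbol for 25 of the 31 genes, and Fdft1, Fdps, Scd1, Scd2, Sqle and Stard4 had none. CCAAT, read on both strands, was in the windows of 21 of the 25 genes (84%), against 41.1% of 27025 symbols with a window, and was not found in those of Acaca, Acat2, Elovl6 and Scap. TCACNCCA, an SREBP-like motif read on both strands, was in 3 of 25 (12%), Hmgcs1, Msmo1 and Srebf2, against 4.97% of all symbols. TCACNCCA and CCAAT did not overlap in the stretches shown. The stretches below end before the start of the gene in both RefSeq and GENCODE, and capitals mark TCACNCCA and CCAAT or its reverse complement ATTGG. Hmgcs1 and Srebf2 are shown as holders of both motifs, Mvk, Mvd, Lss and Nsdhl as path genes that were higher in early CMDMs, Fasn as a fatty acid gene and Elovl5 as the member with the opposite pattern.
Hmgcs1 (chr13:119690171-119690350, plus strand): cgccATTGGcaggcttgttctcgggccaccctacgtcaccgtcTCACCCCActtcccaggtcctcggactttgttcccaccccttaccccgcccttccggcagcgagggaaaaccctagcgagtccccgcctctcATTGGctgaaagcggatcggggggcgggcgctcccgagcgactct
Srebf2 (chr15:82147019-82147180, plus strand): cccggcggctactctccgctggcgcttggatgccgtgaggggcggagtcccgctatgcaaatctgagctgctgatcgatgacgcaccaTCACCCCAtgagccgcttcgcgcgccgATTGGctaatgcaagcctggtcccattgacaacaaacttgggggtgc
Mvk (chr5:114444149-114444268, plus strand): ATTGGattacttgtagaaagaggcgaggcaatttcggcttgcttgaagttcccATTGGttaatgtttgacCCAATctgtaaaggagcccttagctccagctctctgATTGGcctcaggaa
Mvd (chr8:122443423-122443542, minus strand): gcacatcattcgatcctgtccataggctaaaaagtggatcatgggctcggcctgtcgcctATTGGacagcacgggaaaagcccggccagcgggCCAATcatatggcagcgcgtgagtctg
Lss (chr10:76531468-76531587, plus strand): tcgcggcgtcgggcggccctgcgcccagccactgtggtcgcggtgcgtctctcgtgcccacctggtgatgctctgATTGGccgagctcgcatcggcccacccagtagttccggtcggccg
Nsdhl (chrX:72918401-72918520, plus strand): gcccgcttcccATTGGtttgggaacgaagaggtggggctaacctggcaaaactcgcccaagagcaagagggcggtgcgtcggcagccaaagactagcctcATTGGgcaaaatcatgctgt
Fasn (chr11:120824548-120824667, minus strand): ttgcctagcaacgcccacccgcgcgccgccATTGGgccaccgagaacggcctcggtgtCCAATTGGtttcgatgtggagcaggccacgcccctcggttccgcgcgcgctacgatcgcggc
Elovl5 (chr9:77917244-77917363, plus strand): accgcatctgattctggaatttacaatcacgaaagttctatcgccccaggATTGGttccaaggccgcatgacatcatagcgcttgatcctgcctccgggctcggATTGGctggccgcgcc

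In Fasn the letters CCAATTGG hold the motif once on each strand, as overlapping matches. Elovl5 carried CCAAT, like path genes whose levels differed in the other direction. A match of letters is a description and was not tested as a binding site.

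Early CMDMs were compared with classical monocytes first. Of the 31 genes, 25 were called higher (80.6%, against 24.2% of all genes tested), 2 were called lower (6.45%, against 20.6%) and 4 were not called. The median log2 fold change of the members was 0.72, and that of all genes -0.01. By role, 7 of 7 mevalonate genes, 10 of 11 sterol synthesis genes, 5 of 6 SREBP control and transport genes and 3 of 7 fatty acid genes were higher. Insig1 and Elovl5 were lower, and Ebp, Scd1, Scd2 and Elovl6 were not called.

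Late CMDMs against early CMDMs gave 1 gene higher (3.23%, against 14.4% of all genes), 12 lower (38.7%, against 17.5%) and 18 not called, with a median of -0.17. Those lower were Hmgcs1, Mvk and Fdps of the mevalonate path, Fdft1, Sqle, Sc5d and Dhcr7 of sterol synthesis, Srebf1, Srebf2, Scap and Stard4 of the control genes, and Acaca, and Insig1 was the one higher. Late CMDMs against classical monocytes gave 19 higher (61.3%, against 18.1%), 3 lower (9.68%, against 17.5%) and 9 not called, with a median of 0.56. The summed keratinocyte levels overlapped in this pair, with means of 3290 CPM in late CMDMs and 2879 CPM in classical monocytes. Of the 6 keratinocyte genes, Krt14 and Krt15 were called higher in late CMDMs (33.3%, against 18.1% of all genes) and 4 were not called. Krt15 averaged 285 CPM in late CMDMs and 109 CPM in classical monocytes. In early CMDMs against classical monocytes all 6 passed the test. Markers of other cells also differed between late CMDMs and classical monocytes. Mean sums were higher in late CMDMs for sebaceous gland cell markers (344 against 76.6 CPM) and lymphatic endothelial markers (235 against 16.9 CPM). Fibroblast markers (485 against 4526 CPM) and T cell markers were all called lower there. The part of such cells in the 19 higher members was not tested. Among the 19 were 6 mevalonate genes (without Mvk) and 9 sterol synthesis genes (without Ebp and Sc5d), and the 3 that were lower were Srebf2, Stard4 and Elovl5. Without late CMDM replicate 3, only 1 of these 3 was called lower.

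Resident-like macrophages against late CMDMs gave 4 genes higher (12.9%, against 12.7%) and 18 lower (58.1%, against 15.4%), with a median of -0.57, and those higher were Sc5d, Srebf2, Stard4 and Elovl5. Resident-like macrophages against early CMDMs gave 2 higher (6.45%, against 21.4%) and 25 lower (80.6%, against 25.1%), with a median of -0.87, and those higher were Insig1 and Elovl5. Resident-like macrophages against classical monocytes gave 4 higher (12.9%, against 10.8%) and 1 lower (3.23%, against 12.9%), with 26 not called and a median of -0.05; those higher were Pmvk, Nsdhl, Srebf2 and Insig1. The 6 comparisons share libraries, and their counts are not independent of each other.

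**Figure D2:**
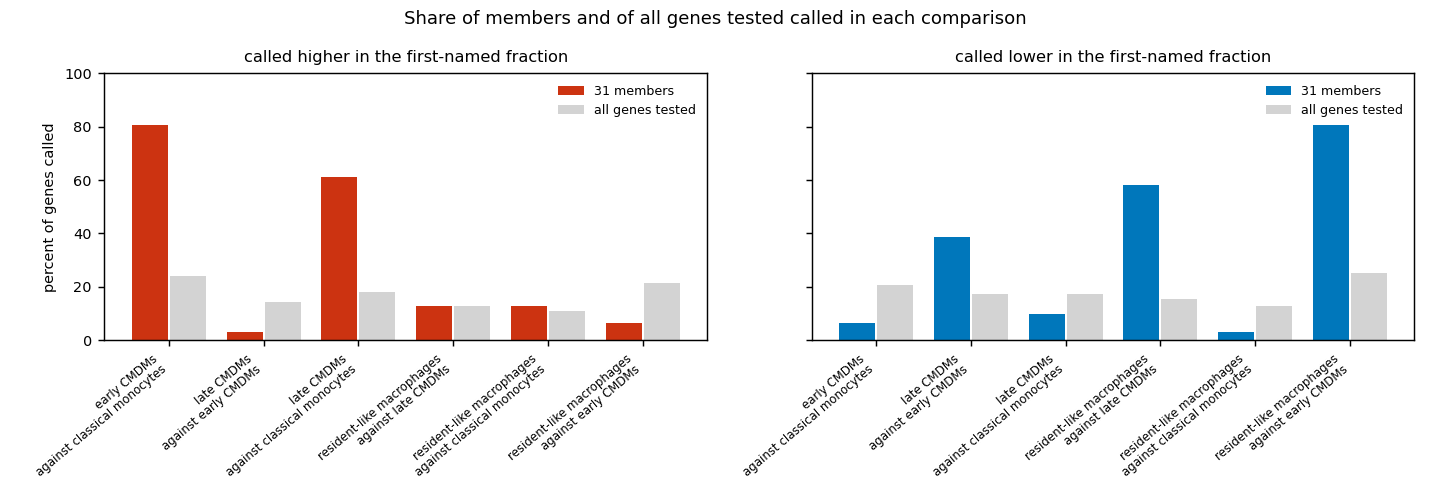
Percent of the 31 members (coloured bars) and of the 22118 genes tested (grey bars) called higher (left) and lower (right) at an adjusted p under 0.05 in each comparison; bars start at 0. The members stand furthest above all genes in early CMDMs against classical monocytes (80.6% against 24.2% higher) and in resident-like macrophages against early CMDMs (80.6% against 25.1% lower).

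Directions hold for levels relative to the whole library. Scaling by 10 leukocyte genes instead, which summed to 1788 to 3012 CPM in early CMDMs and to 4229 to 5907 CPM elsewhere, moved the median log2 fold change of all genes to 1.34 in early CMDMs against classical monocytes, -0.999 in late against early CMDMs, 0.32 in late CMDMs against classical monocytes, -0.30 in resident-like macrophages against late CMDMs, 0.02 against classical monocytes and -1.31 against early CMDMs. Relative to that median, the members' median was 0.78 higher in early CMDMs than in classical monocytes under this scaling (0.73 with TMM) and 0.57 higher in late CMDMs than in classical monocytes (0.57 with TMM). The called directions that turned with it were those of Insig1 in the 3 comparisons with early CMDMs, of Elovl5 in early CMDMs against classical monocytes and in resident-like macrophages against early CMDMs, and of Srebf2 in late CMDMs against classical monocytes. The share of all called genes that were higher went, with the leukocyte scaling, from 54.0% to 96.5% in early CMDMs against classical monocytes, from 45.1% to 0.665% in late against early CMDMs, from 50.8% to 77.7% in late CMDMs against classical monocytes, from 45.1% to 15.5% in resident-like macrophages against late CMDMs and from 46.0% to 2.38% against early CMDMs. With library size alone it went from 45.1% to 28.0% in resident-like macrophages against late CMDMs, from 45.7% to 24.1% against classical monocytes and from 46.0% to 31.5% against early CMDMs, and with DEGES, in which changed genes are left out of the scaling, to 35.3% in the last of these.

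**Figure D3:**
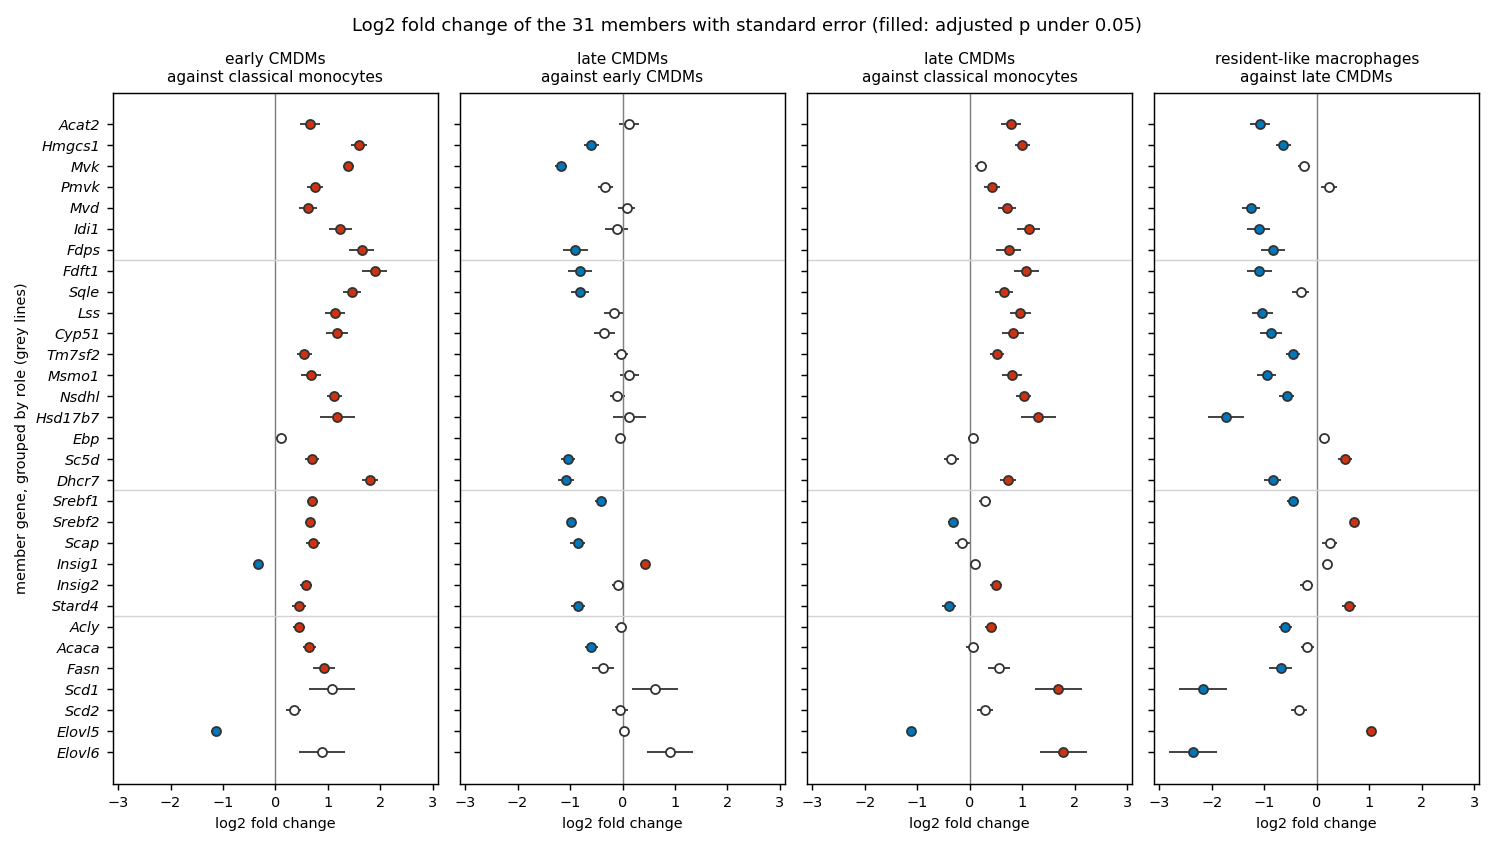
Log2 fold change of each member in 4 comparisons, with its standard error (bars); red and blue points are called higher and lower at an adjusted p under 0.05, and open points are not called. Grey lines separate, from the top, the mevalonate path, sterol synthesis, SREBP control and sterol transport, and fatty acid synthesis. All but Ebp of the upper 18 genes are called higher in early CMDMs than in classical monocytes, and Elovl5 and Insig1 lie on the opposite side.

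The mevalonate path turns acetyl-CoA into farnesyl pyrophosphate, and all of its 7 genes were higher in early CMDMs than in classical monocytes. Positions are those of the GENCODE M21 annotation of GRCm38, from the first to the last base of the gene. Hmgcs1 (chr13:119690379-119708260), the HMG-CoA synthase of the path, was at 86.2, 97.7 and 66 CPM for classical monocytes, 255, 285 and 217 CPM for early CMDMs, 157, 164 and 181 CPM for late CMDMs and 100.1, 95.6 and 127 CPM for resident-like macrophages. Every early library lay above every late library, and every late library above the 6 libraries of classical monocytes and resident-like macrophages. Hmgcs1 was 3.03-fold higher in early CMDMs than in classical monocytes, a log2 fold change of 1.60 ± 0.15 (SE, adjusted p = 3.48e-07), and late CMDMs were also higher than classical monocytes, at 1.01 ± 0.15 (adjusted p = 6.47e-05). Against early CMDMs, late CMDMs were lower, at -0.59 ± 0.15 (adjusted p = 0.00535).

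Fdps (chr3:89093588-89101959), which makes farnesyl pyrophosphate, was at 45.2, 45 and 25.4 CPM for classical monocytes, 118, 147 and 95 CPM for early CMDMs, 55.1, 64.9 and 73.5 CPM for late CMDMs and 33, 28.9 and 46.7 CPM for resident-like macrophages. The 3 early libraries were the highest, followed by the late libraries, without overlap. Its log2 fold change in early CMDMs against classical monocytes was 1.64 ± 0.24 (SE, adjusted p = 6.82e-05), in late against early CMDMs -0.90 ± 0.23 (adjusted p = 0.00882), a call lost when no filter on low counts was used (adjusted p = 0.0551), and in resident-like macrophages against early CMDMs -1.73 ± 0.24 (adjusted p = 4.21e-05). Mvk (chr5:114444269-114460591), mevalonate kinase, was at 17.3, 17.4 and 16.2 CPM for classical monocytes, 47, 47.4 and 39.3 CPM for early CMDMs, 21.6, 19.1 and 18.7 CPM for late CMDMs and 17, 15.5 and 17.8 CPM for resident-like macrophages. Mvk was high in early CMDMs alone, with the late libraries just above those of classical monocytes. It was 2.25-fold lower in late than in early CMDMs, the member with the strongest decrease in this comparison (-1.17 ± 0.11, adjusted p = 9.55e-07), and late CMDMs against classical monocytes gave 0.22 ± 0.11 (adjusted p = 0.142).

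Idi1 (chr13:8885501-8892451), the isopentenyl pyrophosphate isomerase, was at 48.7, 56.5 and 30.4 CPM for classical monocytes, 107, 114 and 97.8 CPM for early CMDMs, 82.7, 105 and 108 CPM for late CMDMs and 35.7, 39.7 and 61.6 CPM for resident-like macrophages. Its early and late libraries overlapped and all 6 lay above the other fractions. Late CMDMs were higher than classical monocytes by 1.12 ± 0.22 (adjusted p = 0.00132) and resident-like macrophages lower than late CMDMs, at -1.11 ± 0.22 (adjusted p = 0.00213). Mvd (chr8:122433601-122443422), mevalonate diphosphate decarboxylase, was at 17.4, 15.1 and 12.9 CPM for classical monocytes, 23.1, 26.2 and 21 CPM for early CMDMs, 22.1, 23.8 and 28.1 CPM for late CMDMs and 10.03, 7.76 and 13.3 CPM for resident-like macrophages. It was as high in late as in early CMDMs within the spread of the libraries and lowest in resident-like macrophages, with -1.25 ± 0.18 (adjusted p = 6.37e-05) against late CMDMs. Mvd was the only member called lower in resident-like macrophages than in classical monocytes, at -0.55 ± 0.18 (adjusted p = 0.0337), with overlapping libraries. This call was lost on leaving out replicate 1 or 2 of either fraction (adjusted p of 0.0666 to 0.153).

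Pmvk (chr3:89454541-89469013), phosphomevalonate kinase, was the one mevalonate gene not called lower in resident-like macrophages than in early CMDMs. It was at 35.8, 31.3 and 28.1 CPM for classical monocytes, 52.6, 58.2 and 49.7 CPM for early CMDMs, 38.6, 44.6 and 44.4 CPM for late CMDMs and 41.4, 44.8 and 64.1 CPM for resident-like macrophages. All libraries of the other fractions were above those of classical monocytes, and resident-like macrophages overlapped with both CMDM fractions. Against classical monocytes it was higher by 0.75 ± 0.15 (adjusted p = 0.000538) in early CMDMs, 0.43 ± 0.15 (adjusted p = 0.0344) in late CMDMs and 0.66 ± 0.15 (adjusted p = 0.00329) in resident-like macrophages. Acat2, the cytosolic acetoacetyl-CoA thiolase at the head of the path, averaged 17.4 ± 3.72 CPM (SD, n = 3) for classical monocytes, 27.6 ± 1.55 CPM (SD, n = 3) for early CMDMs, 30.02 ± 5.34 CPM (SD, n = 3) for late CMDMs and 14.2 ± 3.67 CPM (SD, n = 3) for resident-like macrophages, and was higher in late CMDMs than in classical monocytes by 0.79 ± 0.19 (adjusted p = 0.00355).

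Sterol synthesis, from squalene to cholesterol, held the 2 largest rises of the members in early CMDMs, those of Fdft1 and Dhcr7. Fdft1 (chr14:63145150-63179578), squalene synthase, was at 21.9, 22.2 and 10.1 CPM for classical monocytes, 65.8, 75.9 and 58.8 CPM for early CMDMs, 33.2, 41.6 and 39.3 CPM for late CMDMs and 14.3, 17 and 22.1 CPM for resident-like macrophages. The early libraries were all above the late ones, which were all above the rest. Fdft1 was 3.71-fold higher in early CMDMs than in classical monocytes, the largest fold change of a member in this comparison, at 1.89 ± 0.24 (SE, adjusted p = 2.27e-05) on the log2 scale. It was 3.75-fold lower in resident-like macrophages than in early CMDMs (-1.91 ± 0.24, adjusted p = 1.99e-05). Sqle (chr15:59315077-59331192), squalene epoxidase, was at 23.8, 22 and 13.3 CPM for classical monocytes, 53.3, 60.8 and 48.4 CPM for early CMDMs, 27.9, 31.4 and 33.3 CPM for late CMDMs and 24.3, 23.1 and 27.4 CPM for resident-like macrophages. Early libraries were the highest and late libraries next, while resident-like macrophages overlapped with classical monocytes. Sqle was higher in early CMDMs than in classical monocytes by 1.46 ± 0.17 (adjusted p = 3.37e-06) and lower in late than in early CMDMs, at -0.81 ± 0.17 (adjusted p = 0.00135), while resident-like macrophages against late CMDMs gave -0.31 ± 0.17 (adjusted p = 0.192).

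Dhcr7 (chr7:143823145-143848410), the reductase of the last step, was at 6.09, 5.66 and 4.63 CPM for classical monocytes, 18.7, 21.5 and 17 CPM for early CMDMs, 8.52, 10.2 and 8.36 CPM for late CMDMs and 5.07, 4.37 and 5.71 CPM for resident-like macrophages. All early libraries lay above all late libraries, and these above the other fractions, which overlapped. Early CMDMs exceeded classical monocytes by 1.80 ± 0.16 (SE, adjusted p = 1.22e-07) and late CMDMs fell from early CMDMs, at -1.07 ± 0.15 (adjusted p = 4.45e-05). In resident-like macrophages Dhcr7 was 3.77-fold lower than in early CMDMs, the strongest decrease of a member in that comparison (-1.92 ± 0.16, adjusted p = 6.33e-08). Sc5d (chr9:42251595-42264256), the sterol desaturase before it, was at 24.6, 23.7 and 24.7 CPM for classical monocytes, 39.7, 48 and 30.8 CPM for early CMDMs, 20.3, 18.2 and 18.9 CPM for late CMDMs and 26.1, 26.9 and 29.96 CPM for resident-like macrophages. Its late libraries were the lowest of all, below those of classical monocytes. It was 2.06-fold lower in late than in early CMDMs (-1.05 ± 0.14, adjusted p = 2.09e-05). Resident-like macrophages were higher than late CMDMs by 0.53 ± 0.14 (adjusted p = 0.00799), a direction opposite to that of Dhcr7 (-0.84 ± 0.16, adjusted p = 0.00102).

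Hsd17b7 (chr1:169949535-169969241), a sterol 3-ketoreductase, was at 30.8, 24.5 and 12.49 CPM for classical monocytes, 49.5, 56.4 and 47.3 CPM for early CMDMs, 45.5, 55.7 and 66.4 CPM for late CMDMs and 11.9, 12.4 and 26.2 CPM for resident-like macrophages. Early and late CMDMs overlapped and lay above both other fractions, in each of which the library numbered 3 stood apart, low in classical monocytes and high in resident-like macrophages. Hsd17b7 was higher in late CMDMs than in classical monocytes by 1.31 ± 0.33 (SE, adjusted p = 0.0086) and 3.32-fold lower in resident-like macrophages than in late CMDMs (-1.73 ± 0.34, adjusted p = 0.0024). Nsdhl (chrX:72918557-72958514), which removes the methyl groups of the sterol together with Msmo1, was at 11.9, 10.8 and 9.2 CPM for classical monocytes, 22.4, 27.4 and 19.7 CPM for early CMDMs, 19.6, 21.3 and 24 CPM for late CMDMs and 14, 14 and 15.8 CPM for resident-like macrophages. All resident-like libraries were above the classical monocyte libraries and below the CMDM libraries. Against classical monocytes Nsdhl was higher by 1.12 ± 0.14 (adjusted p = 8.33e-06) in early CMDMs and by 0.46 ± 0.15 (adjusted p = 0.0311) in resident-like macrophages, the latter call being lost without classical monocyte replicate 2 or 3 or without resident-like replicate 3 (adjusted p of 0.0600 to 0.110).

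The remaining sterol genes are given by their means. Lss, which closes the ring to lanosterol, averaged 20.2, 44.4, 39.4 and 19.2 CPM from classical monocytes through early and late CMDMs to resident-like macrophages. Cyp51, the lanosterol demethylase, averaged 42, 94.7, 74.3 and 40.6 CPM in the same order. Lss and Cyp51 were higher in late CMDMs than in classical monocytes by 0.96 ± 0.20 (adjusted p = 0.0013) and 0.82 ± 0.21 (adjusted p = 0.006). Msmo1 was at 61, 97.7, 107 and 55 CPM, and Tm7sf2, a sterol reductase, at 8.002, 11.7, 11.46 and 8.34 CPM. Both were higher in late CMDMs than in classical monocytes, by 0.81 ± 0.18 (adjusted p = 0.00296) and 0.52 ± 0.14 (adjusted p = 0.00751). Ebp, the sterol isomerase, was not called in any of the 6 comparisons, its means lying between 51.1 CPM in classical monocytes and 58.6 CPM in resident-like macrophages and its log2 fold changes between -0.04 and 0.20.

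**Figure D4:**
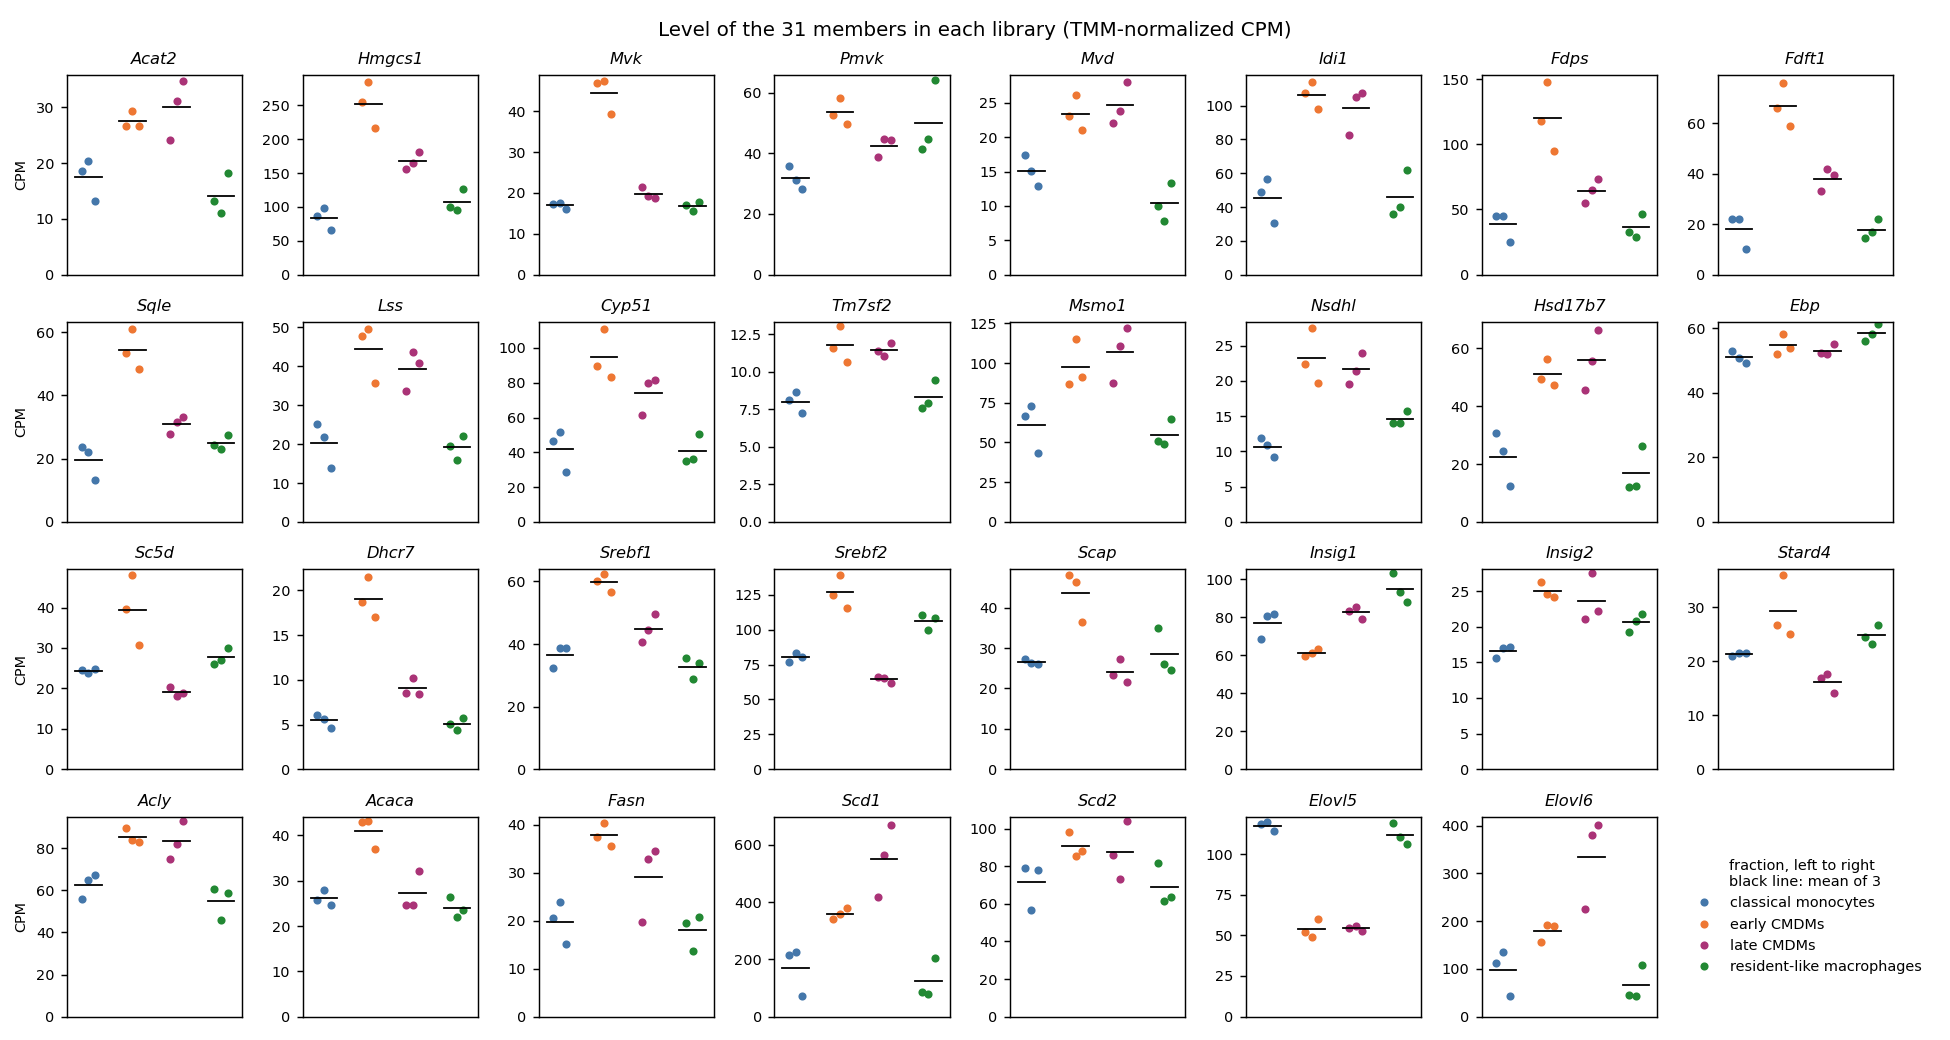
TMM-normalized CPM of the 31 members in each library (points, 3 per fraction, coloured by fraction; black lines are means; each axis starts at 0). Mvk, Dhcr7 and Fdft1 are high in early CMDMs, Scd1 and Elovl6 are highest in late CMDMs, Elovl5 is high in classical monocytes and resident-like macrophages, and Ebp is level across the fractions.

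The genes that control the path did not all follow it. Srebf2 (chr15:82147181-82205379), which encodes SREBP-2, the main activator of the sterol genes, was at 77.1, 83 and 80.3 CPM for classical monocytes, 125, 139 and 116 CPM for early CMDMs, 66, 65.4 and 61.8 CPM for late CMDMs and 110.5, 99.4 and 108 CPM for resident-like macrophages. Early CMDMs were highest, resident-like macrophages next, and all late libraries were below all libraries of classical monocytes. Srebf2 was higher in early CMDMs than in classical monocytes by 0.66 ± 0.09 (SE, adjusted p = 2.06e-05), fell in late CMDMs, at -0.98 ± 0.09 (adjusted p = 1.05e-06) and was higher in resident-like macrophages than in late CMDMs by 0.72 ± 0.09 (adjusted p = 2.71e-05), a call lost under the leukocyte scaling (0.41, adjusted p = 0.123). Resident-like macrophages were also called lower than early CMDMs, at -0.26 ± 0.09 (adjusted p = 0.0299), but not without early CMDM replicate 1 or 2 or resident-like replicate 2 or 3 (adjusted p of 0.0516 to 0.147), nor with no filter on low counts (adjusted p = 0.0709). Late CMDMs against classical monocytes gave -0.32 ± 0.09 (adjusted p = 0.0138), a call that was lost without late CMDM replicate 3 (adjusted p = 0.0618) and whose sign turned under the leukocyte scaling (0.02, adjusted p = 0.964). With TMM, late CMDMs thus had less Srebf2 and more Hmgcs1, Idi1 and Fdft1 than classical monocytes, and resident-like macrophages had more Srebf2 and less of these 3 genes than late CMDMs. Not all members differed from Srebf2 in this way. Sc5d, Scap, Stard4 and Elovl5 had, like Srebf2, lower means in late CMDMs than in classical monocytes and resident-like macrophages.

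Srebf1 (chr11:60199089-60222581), the paralog with a larger known part in fatty acid synthesis, was at 32.3, 38.6 and 38.9 CPM for classical monocytes, 60.2, 62.2 and 56.6 CPM for early CMDMs, 40.5, 44.5 and 49.7 CPM for late CMDMs and 35.6, 28.8 and 33.8 CPM for resident-like macrophages. Early libraries were the highest, late libraries intermediate and the other fractions overlapped. Srebf1 was higher in early CMDMs than in classical monocytes by 0.71 ± 0.11 (SE, adjusted p = 7.45e-05) and lower in late than in early CMDMs, at -0.41 ± 0.11 (adjusted p = 0.00957), the latter call being lost without late CMDM replicate 1 (adjusted p = 0.0588). Late CMDMs against classical monocytes gave 0.30 ± 0.11 (adjusted p = 0.0507), which passed the threshold without classical monocyte replicate 3 or without late CMDM replicate 1 (adjusted p of 0.0435 and 0.0367). In contrast to Srebf2, it was lower in resident-like macrophages than in late CMDMs, at -0.46 ± 0.11 (adjusted p = 0.00625). The difference between the paralogs was not tested.

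Insig1 (chr5:28071363-28078662), which holds SREBPs in the endoplasmic reticulum and is itself a known SREBP target, was at 68.4, 80.6 and 81.9 CPM for classical monocytes, 59.3, 61 and 63.3 CPM for early CMDMs, 83.5, 85.2 and 79 CPM for late CMDMs and 103, 93.2 and 88.1 CPM for resident-like macrophages. All early libraries lay below all others, the reverse of the path genes. Insig1 was lower in early CMDMs than in classical monocytes, at -0.33 ± 0.10 (SE, adjusted p = 0.00984), higher in late than in early CMDMs by 0.43 ± 0.10 (adjusted p = 0.00237) and higher in resident-like macrophages than in early CMDMs by 0.63 ± 0.10 (adjusted p = 4.64e-05). Under the leukocyte scaling these became 1.03, -0.60 and -0.71, each smaller in size than the shift of the median of all genes. The call against classical monocytes was lost without early CMDM replicate 1 (adjusted p = 0.0542) and with the DEGES scaling (adjusted p = 0.056). Resident-like macrophages were higher than classical monocytes by 0.30 ± 0.10 (adjusted p = 0.0297), a call lost without replicate 1 of either fraction or without resident-like replicate 2 (adjusted p of 0.0578 to 0.127) and with no filter on low counts (adjusted p = 0.0514).

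Insig2 (chr1:121304353-121332589), its paralog, was at 15.6, 17 and 17.2 CPM for classical monocytes, 26.3, 24.5 and 24.2 CPM for early CMDMs, 21, 27.5 and 22.2 CPM for late CMDMs and 19.3, 20.8 and 21.8 CPM for resident-like macrophages. All libraries of the other fractions were above those of classical monocytes, and late CMDMs overlapped with early CMDMs and with resident-like macrophages. The log2 fold change was 0.59 ± 0.12 (SE, adjusted p = 0.000605) in early CMDMs and 0.51 ± 0.12 (adjusted p = 0.00286) in late CMDMs against classical monocytes. Scap averaged 26.6 ± 0.721 CPM (SD, n = 3) for classical monocytes and 43.7 ± 6.26 CPM (SD, n = 3) for early CMDMs, and was higher there by 0.72 ± 0.14 (adjusted p = 0.000576) and lower again in late CMDMs, at -0.86 ± 0.14 (adjusted p = 0.000229). Stard4, a carrier of cholesterol between membranes, went from 29.2 ± 5.87 CPM (SD, n = 3) for early CMDMs to 16.2 ± 1.91 CPM (SD, n = 3) for late CMDMs, the lowest of the fractions, a change of -0.85 ± 0.14 (adjusted p = 0.000171). Resident-like macrophages were higher than late CMDMs in Stard4 by 0.62 ± 0.14 (adjusted p = 0.00318).

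Fatty acid synthesis split into genes with different patterns. Acly makes cytosolic acetyl-CoA, Acaca carboxylates it and Fasn builds palmitate. Acly averaged 62.7, 85.4, 83.3 and 55 CPM from classical monocytes through early and late CMDMs to resident-like macrophages, Acaca 26.2, 41.1, 27.2 and 24 CPM, and Fasn 19.8, 37.9, 29 and 18 CPM. All 3 were higher in early CMDMs than in classical monocytes, by 0.44 ± 0.12 (adjusted p = 0.00553), 0.65 ± 0.12 (adjusted p = 0.000377) and 0.93 ± 0.21 (adjusted p = 0.00194). Acaca was lower again in late CMDMs (-0.59 ± 0.12, adjusted p = 0.00136), where Acly and Fasn gave -0.04 ± 0.12 (adjusted p = 0.853) and -0.38 ± 0.21 (adjusted p = 0.187).

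Scd1 (chr19:44394455-44407879), the desaturase that makes monounsaturated fatty acids, was at 215, 225 and 72.9 CPM for classical monocytes, 342, 358 and 379 CPM for early CMDMs, 418, 566 and 669 CPM for late CMDMs and 85.4, 79.8 and 204 CPM for resident-like macrophages. Late CMDMs were highest and early CMDMs next, without overlap, and the library numbered 3 was the lowest of the classical monocytes and the highest of the resident-like macrophages. Scd1 was 3.23-fold higher in late CMDMs than in classical monocytes (1.69 ± 0.45 SE, adjusted p = 0.0134) and 4.49-fold lower in resident-like macrophages than in late CMDMs (-2.17 ± 0.46, adjusted p = 0.00507). The first of these calls was lost when the replicate number was added to the fit as a block (1.64, adjusted p = 0.0520). Early CMDMs against classical monocytes gave 1.07 ± 0.44 (adjusted p = 0.0722) and late against early CMDMs 0.62 ± 0.44 (adjusted p = 0.329), neither of them called. The call of a lower level in resident-like macrophages than in early CMDMs (-1.55 ± 0.45, adjusted p = 0.0158) was lost without early CMDM replicate 3 or without resident-like replicate 1 or 2 (adjusted p of 0.0527 to 0.0605).

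Elovl6 (chr3:129532355-129638495), which elongates palmitate, was at 113, 135 and 43.9 CPM for classical monocytes, 157, 192 and 189.6 CPM for early CMDMs, 225, 379 and 401 CPM for late CMDMs and 45.7, 43.4 and 108 CPM for resident-like macrophages. All late libraries were above all early libraries, and the library numbered 3 was again the lowest of the classical monocytes and the highest of the resident-like macrophages. Elovl6 was 3.45-fold higher in late CMDMs than in classical monocytes (1.79 ± 0.45 SE, adjusted p = 0.0101) and 5.11-fold lower in resident-like macrophages than in late CMDMs (-2.35 ± 0.46, adjusted p = 0.00325), the largest changes of a member in either comparison. Early CMDMs against classical monocytes gave 0.88 ± 0.44 (adjusted p = 0.131) and late against early CMDMs 0.90 ± 0.44 (adjusted p = 0.15), neither of them called.

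The summed markers of sebaceous gland cells, which are rich in lipid synthesis, differed in the same direction. The 7 markers (Awat1, Awat2, Dgat2l6, Krt79, Mc5r, Cidea and Elovl3) summed to 79, 111 and 40.3 CPM for classical monocytes, 212, 238 and 210.4 CPM for early CMDMs, 259, 429 and 343 CPM for late CMDMs and 59.8, 43.4 and 82.5 CPM for resident-like macrophages. None was at 0 in a fraction, Krt79 made up most of the sum, and Awat1, Awat2, Dgat2l6 and Mc5r were each under 7 CPM in every library. Of the 7, Krt79, Mc5r, Cidea and Elovl3 were called higher in late CMDMs than in classical monocytes and lower in resident-like macrophages than in late CMDMs. Elovl3 was at 24.7, 23.6 and 6.41 CPM for classical monocytes, 24.7, 24.7 and 37 CPM for early CMDMs, 40.6, 58.5 and 62.5 CPM for late CMDMs and 7.44, 6.43 and 19.1 CPM for resident-like macrophages, with the same low classical monocyte library and the same high resident-like library as Scd1 and Elovl6. The part of such cells in the levels of the members, among them Scd1, Elovl6 and Hsd17b7, was not tested.

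**Figure D5:**
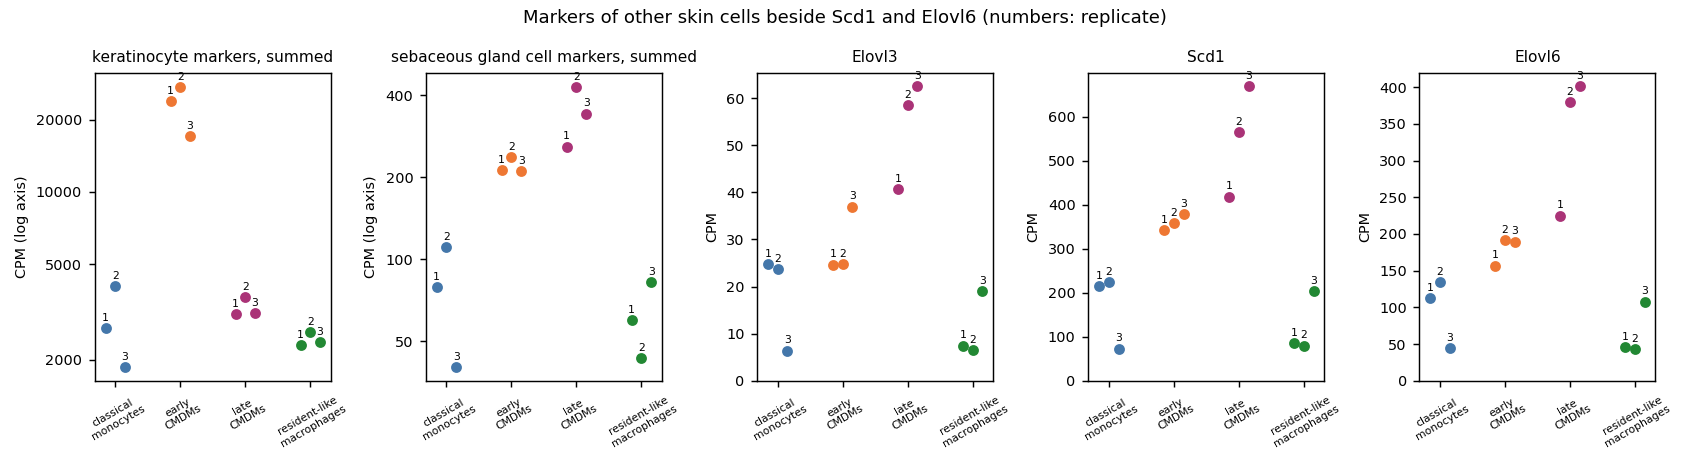
Summed CPM of 6 keratinocyte and 7 sebaceous gland cell markers (log axes) and CPM of Elovl3, Scd1 and Elovl6 (linear axes from 0) in each library, with the replicate number above each point. Keratinocyte markers are highest in early CMDMs (17096 to 27284 CPM), whereas Elovl3, Scd1 and Elovl6 are highest in late CMDMs, and replicate 3 is the lowest classical monocyte library and the highest resident-like library in all 3 genes.

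Scd2 (chr19:44293674-44306864), the neighbour of Scd1, was at 79, 56.9 and 78.2 CPM for classical monocytes, 98, 85.7 and 88.3 CPM for early CMDMs, 85.8, 73.4 and 104 CPM for late CMDMs and 81.7, 61.8 and 63.4 CPM for resident-like macrophages. Early libraries lay above those of classical monocytes and of resident-like macrophages, and late libraries overlapped with every other fraction. Scd2 gave 0.35 ± 0.15 (SE, adjusted p = 0.074) in early CMDMs and 0.30 ± 0.15 (adjusted p = 0.14) in late CMDMs against classical monocytes, and was called in 1 of the 6 comparisons, resident-like macrophages against early CMDMs (-0.39 ± 0.15, adjusted p = 0.0421). This call was lost without each of the 3 early libraries and without resident-like replicate 2 or 3 (adjusted p of 0.0564 to 0.147). Without resident-like replicate 1 it was also called lower in resident-like macrophages than in late CMDMs (-0.49, adjusted p = 0.0370, in place of -0.35 ± 0.15 (adjusted p = 0.101)). Whether Scd1 and Scd2 differed in their change was not tested.

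Elovl5 (chr9:77917364-77984519), an elongase of polyunsaturated fatty acids, had the opposite pattern to the path. It was at 118, 119.6 and 114 CPM for classical monocytes, 51.9, 49.1 and 60.2 CPM for early CMDMs, 54.7, 55.7 and 52.9 CPM for late CMDMs and 119, 110.5 and 106 CPM for resident-like macrophages. The libraries of early and late CMDMs overlapped at the low end and those of classical monocytes and resident-like macrophages at the high end, with no library between. Elovl5 was 2.19-fold lower in early CMDMs and 2.16-fold lower in late CMDMs than in classical monocytes, at -1.13 ± 0.09 (SE, adjusted p = 8.12e-08) and -1.11 ± 0.09 (adjusted p = 1.61e-07) on the log2 scale, and higher in resident-like macrophages than in late CMDMs by 1.04 ± 0.09 (adjusted p = 6.14e-07) and than in early CMDMs by 1.06 ± 0.09 (adjusted p = 1.38e-07). Under the leukocyte scaling the difference of early CMDMs from classical monocytes was 0.21 (adjusted p = 0.254) and that of resident-like macrophages from early CMDMs -0.26 (adjusted p = 0.163), so that both signs turned.

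Between resident-like macrophages and classical monocytes, 26 of the 31 members were not called, against 16867 of the 22118 genes tested. Lack of a call does not show equal levels, since the libraries of both fractions were uneven. Scd1, for example, gave -0.47 ± 0.44 (SE) and was not called. In classical monocytes, replicate 3 was the lowest library for 23 of the 31 genes, against 37.0% of all genes tested, and in resident-like macrophages replicate 3 was the highest for 23 of the 31, against 33.8%. Early CMDMs were highest in replicate 2 for 24 genes, against 36.0% of all genes, and lowest in replicate 3 for 24 genes, against 38.8%. The keratinocyte sum of early CMDMs was likewise highest in replicate 2 (27284 CPM) and lowest in replicate 3 (17096 CPM). The 10 leukocyte genes had the reverse order, at 1788 CPM in replicate 2 and 3012 CPM in replicate 3. Whether these levels have a part in the order of the members was not tested. Late CMDMs were lowest in replicate 1 and highest in replicate 3 for 19 genes each, against 33.1% of all genes in both cases. The 2 libraries numbered 3 of classical monocytes and resident-like macrophages widen the spread on both sides of the comparison of these fractions. When both were left out, a choice made after seeing the data, 8 members were called lower in resident-like macrophages than in classical monocytes in place of 1 and 2 in place of 4 higher, while 4632 of 22484 genes were called in that fit, 45.5% of them higher. These libraries were picked at the members' own extremes, so that leaving them out moves the members towards lower values in resident-like macrophages by construction, and the counts are a description only. Leaving out 1 library at a time gave 3 to 4 members higher, and 0 lower without replicate 1 or 2 of either fraction, 1 without classical monocyte replicate 3 and 2 without resident-like replicate 3.

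Other genes of sterol and lipid handling were counted from lists. Of 14 other sterol and isoprenoid genes, 13 were tested. In early CMDMs against classical monocytes 1 was higher (7.69%, against 24.2% of all genes) and 3 lower (23.1%, against 20.6%), in late against early CMDMs 2 were higher (15.4%, against 14.4%) and 2 lower (15.4%, against 17.5%), and in late CMDMs against classical monocytes 2 were higher (15.4%, against 18.1%) and 3 lower (23.1%, against 17.5%). Most of these shares lay near or below those of all genes.

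Genes of sterol export, storage and LXR signalling were counted beside the synthesis genes. Of 13 genes, 2 were higher (15.4%, against 24.2% of all genes) and 7 lower (53.8%, against 20.6%) in early CMDMs than in classical monocytes, whereas 11 were higher in late than in early CMDMs (84.6%, against 14.4%) and the other 2 were not called, with a median log2 fold change of 0.76 there. Against classical monocytes, 7 were higher (53.8%, against 18.1%) and 2 lower (15.4%, against 17.5%) in late CMDMs. Cyp27a1, which makes an oxysterol ligand of LXR, went from 32.5, 22.4 and 30.6 CPM in early CMDMs to 69.4, 66.1 and 55.1 CPM in late CMDMs, 1.16 ± 0.13 (SE, adjusted p = 5.02e-06), and Lipa, the lysosomal lipase, from 85.6, 58.4 and 100.7 to 189, 133 and 175 CPM, 1.02 ± 0.20 (SE, adjusted p = 0.00103). Neither pair of fractions overlapped. Ch25h, a hydroxylase of cholesterol, was higher in early CMDMs (6.53 CPM) than in classical monocytes (1.85 CPM), by 1.82 ± 0.28 (adjusted p = 6.3e-05), and Nceh1, a cholesteryl ester hydrolase, was lower there, at -1.16 ± 0.14 (adjusted p = 6.13e-06). Nceh1 was higher in resident-like macrophages than in early CMDMs by 1.62 ± 0.15 (adjusted p = 1.69e-07). In early CMDMs the low level of these genes stands beside a low level of the 7 monocyte-macrophage markers, 4 of which were lower than in classical monocytes and 6 of which were higher again in late CMDMs, and the part of this in the counts was not tested.

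Of 18 other fatty acid genes, 8 were higher (44.4%, against 24.2% of all genes) and 2 lower (11.1%, against 20.6%) in early CMDMs than in classical monocytes. In late against early CMDMs 6 were higher (33.3%, against 14.4%) and 3 lower (16.7%, against 17.5%), and in late CMDMs against classical monocytes 10 were higher (55.6%, against 18.1%) and 2 lower (11.1%, against 17.5%). In resident-like macrophages 1 was higher (5.56%, against 12.7%) and 10 were lower (55.6%, against 15.4%) than in late CMDMs. Me1, the malic enzyme that supplies NADPH, averaged 14.2, 61.2, 37.6 and 8.45 CPM from classical monocytes through early and late CMDMs to resident-like macrophages. It was higher in early CMDMs than in classical monocytes by 2.11 ± 0.30 (adjusted p = 7.7e-05) and lower in resident-like macrophages than in late CMDMs, at -2.16 ± 0.31 (adjusted p = 0.000228). Elovl7, another elongase, was highest in early CMDMs, at 53.1 CPM against 10.1, 11.8 and 7.09 CPM in classical monocytes, late CMDMs and resident-like macrophages, and Tecr, which completes each elongation cycle, was higher there by 1.06 ± 0.13 (adjusted p = 4.69e-06). Acacb, the mitochondrial acetyl-CoA carboxylase, was highest in late CMDMs, at 13.7 CPM, with 1.40 ± 0.26 (adjusted p = 0.00058) against classical monocytes and -2.11 ± 0.27 (adjusted p = 3.98e-05) in resident-like macrophages against late CMDMs.

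The desaturases of polyunsaturated fatty acids, which act before and after Elovl5, did not share one pattern. Fads2 averaged 14.5, 2.63, 2.005 and 10.02 CPM from classical monocytes through early and late CMDMs to resident-like macrophages, and was lower in early CMDMs than in classical monocytes, at -2.46 ± 0.24 (adjusted p = 5.24e-07) and higher in resident-like macrophages than in late CMDMs by 2.32 ± 0.26 (adjusted p = 6.23e-06), the directions of Elovl5. Fads1 averaged 20.5, 18.6, 44 and 47.1 CPM and was higher in late than in early CMDMs by 1.24 ± 0.18 (adjusted p = 8.51e-05). The acetyl-CoA synthetase gene Acss2 and the Scd paralogs Scd3 and Scd4 were lower in resident-like macrophages than in late CMDMs, at -1.02 ± 0.16 (adjusted p = 0.00018), -1.62 ± 0.39 (adjusted p = 0.00775) and -1.10 ± 0.23 (adjusted p = 0.00196).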

How the data were processed

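Total RNA of sorted Mo-Macs was poly(A)-selected, fragmented and sequenced on an Illumina instrument. Per the labels, reads were trimmed with cutadapt 4.1 and mapped with Bowtie2 2.4.5 to GRCm38 reference RNA, and the authors deposited 1 table of raw counts per gene symbol, in which counts of a symbol's transcripts were summed. Multimapping between similar transcripts was not resolved here, so that paralogs (Scd1 to Scd4, Insig1 and Insig2, Srebf1 and Srebf2) and overlapping genes could share reads. Libraries were grouped by the labelled cell subtype, and each of the 12 columns was assigned to 1 library.

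Genes were kept by filterByExpr, normalized by TMM and tested with the robust quasi-likelihood F test of edgeR 4.0.16 (R 4.3.3) on all 12 libraries in 1 fit, with Benjamini-Hochberg adjustment over 22118 genes and a threshold of 0.05. The standard error was the size of the log2 fold change divided by the square root of F. The 12 totals (12537178 to 19844113 counts) limit precision through counting error only. Statistics were tested on simulated data. Per-library values are given for the 5 called members with the largest change in each comparison and for the paralog pairs. Other pathway genes are named where called and changed by at least 1 on the log2 scale, except 1 that is not reported here. The members and lists were chosen with earlier results of these data known. Alternatives were DESeq2 1.42.0, RLE, library size, DEGES and leukocyte scaling, other filters, fits restricted to the 6 compared libraries, a replicate block, stricter thresholds and leaving out each library. Promoter windows came from RefSeq (GRCm38.p6), and positions and transcript lengths from GENCODE M21.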

Additional observations from a re-analysis of the deposited data

How the results depend on the processing

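Leukocyte scaling reversed the signs of Insig1 in early CMDMs against classical monocytes (1.03), late against early CMDMs (-0.60) and resident-like macrophages against early CMDMs (-0.71) and of Srebf2 in late CMDMs against classical monocytes (0.0152), as well as those of Elovl5 in early CMDMs against classical monocytes (0.21) and in resident-like macrophages against early CMDMs (-0.26). In early CMDMs against classical monocytes, 25 members were called higher and 2 lower. A log2 fold change of at least 1 left 11 and 1, DEGES 1 lower, leukocyte scaling 0 lower by edgeR, and leaving out a library 1 to 2 lower. DEGES called 10058 of 22118 genes there, 63.1% of them higher. In late against early CMDMs (1 higher, 12 lower), leukocyte scaling gave 0 and 28, where 16681 of 22118 genes were called and 0.665% of these were higher. The 6 libraries alone gave 3 higher, where 7944 of 20604 genes were called, 46.3% of them higher. The fold minimum gave 0 and 3, where 2631 of 22118 genes were called, 29.8% of them higher. In late CMDMs against classical monocytes (19 higher, 3 lower), the fold minimum gave 7 and 1, leukocyte scaling and the threshold of 0.01 each 1 lower, and leaving out a library 1 to 3 lower. The 0.01 threshold called 5466 of 22118 genes there, 50.1% of them higher. In resident-like macrophages against late CMDMs (4 higher, 18 lower), leukocyte scaling gave 1 higher and the fold minimum 1 and 8. In resident-like macrophages against early CMDMs (2 higher, 25 lower), leukocyte scaling gave 0 higher and the fold minimum 1 and 14. Of all 22118 genes, the fold minimum left 4427 called in early CMDMs against classical monocytes (56.9% of them higher). It left 3149 in late CMDMs against classical monocytes (46.8% higher). In resident-like macrophages it left 2297 against late CMDMs (37.8% higher) and 4683 against early CMDMs (35.9% higher). Leukocyte scaling called 19180, 7338, 5639 and 18866 genes in these comparisons, in this order.

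Resident-like macrophages against classical monocytes, with 4 higher and 1 lower, depended most on the settings. Library size alone gave 1 and 3, leukocyte scaling 1 and 0, the 6 libraries alone 2 and 0, the threshold of 0.01 2 and 0, and the fold minimum 0 and 0, all by edgeR. Of all genes, library size alone called 5971 of 22118 (24.1% of them higher) and leukocyte scaling 3307 (43.1%). The 6 libraries alone called 4252 of 21225 genes (45.7% higher). The 0.01 threshold called 3427 of 22118 genes (43.7% higher) and the fold minimum 2272 (32.9%). Leaving out a library gave 3 to 4 higher and 0 to 2 lower, and leaving out both libraries numbered 3, chosen after seeing the data, gave 2 and 8. The cause of these changes was not tested, except that a fold minimum or a stricter threshold removes calls by construction and fewer libraries give fewer degrees of freedom. DESeq2 kept every count of members except 20 in place of 19 higher in late CMDMs against classical monocytes.

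Of 18 pairs of libraries with the same replicate number, 16 had r over 0 and 4 over 0.1 in their deviations from the fraction means (range -0.0987 to 0.248), against 1 of 36 pairs with other numbers over 0.1 (range -0.215 to 0.171), and 9 of 12 libraries had their highest r with their own number. The labels tie the numbers to no animal or day, so that whether the numbers pair the samples is not known. The fit reported above did not pair them, and these values are only a hint. A replicate block gave 26 higher and 2 lower in early CMDMs against classical monocytes, 1 and 12 in late against early CMDMs, 19 and 3 in late CMDMs against classical monocytes, 4 and 19 in resident-like macrophages against late CMDMs, 4 and 1 against classical monocytes and 2 and 24 against early CMDMs. Of all 22118 genes, in this order, the block called 10322 (53.7% of them higher), 7565 (45.9%), 8440 (51.8%), 6799 (44.3%), 5728 (45.9%) and 10656 (46.3%). The called members changed with it: Scd1 was lost in late CMDMs against classical monocytes (1.64, adjusted p = 0.0520), where Srebf1 (adjusted p = 0.0475) and Scd2 (adjusted p = 0.0460) were gained, and Scd2 was gained in early CMDMs against classical monocytes (adjusted p = 0.0166) and in resident-like macrophages against late CMDMs (adjusted p = 0.0305).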
